A study of Caenorhabditis elegans with 12 samples.

Results

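Germline loss was measured by setting 3 glp-1(ts) libraries against 3 wild type (WT) libraries, 6 of the 12 libraries in the series, across all 12595 genes of the deposited table. WT was the N2 strain, and glp-1(ts) was the glp-1(bn18ts) strain of Caenorhabditis elegans. Both strains were synchronised, grown at 25°C, fed bacteria carrying the empty RNAi vector L4440, and collected whole on day 1 of adulthood as 3 biological replicates per strain. The labels start this feeding at the egg and the study's methods at the first larval stage. No drug was used to stop egg laying, so the WT worms carried a germline and eggs. The other 6 libraries came from the same strains fed skn-1 RNAi bacteria. They were normalized together with the 6 compared here, and they entered the fit of this comparison only through the shared estimate of the spread.

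The gene glp-1 encodes a Notch receptor on germ cells. A somatic cell at the tip of the gonad presents Notch ligands, and the signal keeps nearby germ cells dividing as germline stem cells (GSCs). Germ cells that leave the signal enter meiosis and, in an adult hermaphrodite, form oocytes packed with maternal mRNA. When the ts receptor fails from early larval life, few germ cells are made and the adult is sterile, here called GSC(−), while the soma completes development. The transcript of a missense allele is no check of the strain, but its own level was lower in the mutant: glp-1 stood at 7.04, 7.25 and 6.99 log2 CPM in WT and at 4.68, 4.79 and 5.44 in glp-1(ts).

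All values are log2 CPM (log2 of the counts of a gene scaled to a common library total) after quantile normalization by the authors, which gave every library nearly the same distribution of values. The read depth of each library is therefore unknown, and the number of libraries limits the precision. Pearson's r across genes was 0.967 to 0.975 between WT libraries, 0.951 to 0.970 between glp-1(ts) libraries and 0.719 to 0.813 between strains. On the first principal component of the 6 libraries, which held 84.2% of the variance, WT lay at −94.6, −100.3 and −97 and glp-1(ts) at 111.9, 107.9 and 72.1. Replicate 3 of glp-1(ts) thus stood apart from its group in the direction of WT, and results are given with and without it where they rest on it.

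The strain difference reached most of the table. A gene is called higher or lower here when limma gave a Benjamini-Hochberg adjusted p under 0.05 over all genes. In glp-1(ts) 4958 genes were higher (39.4% of those tested) and 4788 were lower (38.0%), 77.4% in all. Without replicate 3 of glp-1(ts) the counts were 4872 and 4671. For 81.1% of genes the 3 values of one strain did not overlap those of the other, so an overlap-free difference was the rule in these data and singles out no gene.

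On the deposited scale more genes fell than rose by large factors. Over 4-fold changes were called for 1912 genes lower (15.2%) and 1304 higher (10.4%), over 8-fold for 673 lower and 161 higher, and over 16-fold for 99 lower and 29 higher. This balance depends on the scale: with each library centred on its ribosomal protein genes 7108 genes were higher and 2753 lower, and over 4-fold changes were called for 4108 genes higher and 774 lower. Over all genes the log2 fold change had a median of 0.27 and quartiles of −1.32 and 1.42. The plot of level against fold change shows the called genes on both sides of 0 over most of the range of levels.

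**Figure D1:**
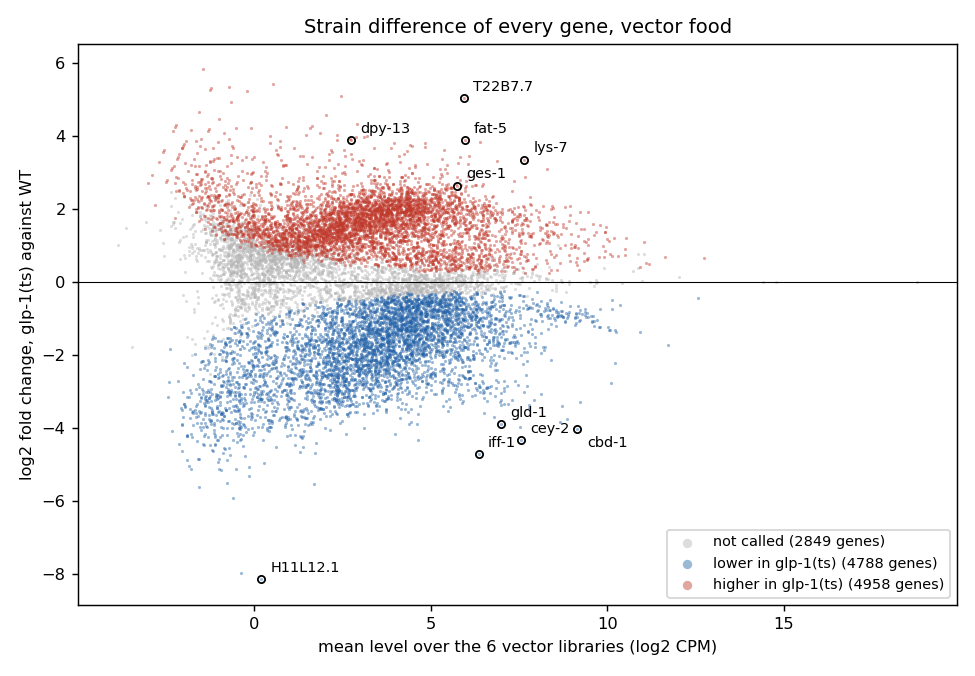
Log2 fold change of glp-1(ts) against WT (vertical axis) for each gene against its mean level over the 6 vector libraries in log2 CPM (horizontal axis). Each point is a gene, red where called higher (4958), blue where called lower (4788) and grey where not called (2849), and 10 genes named in the text are circled.

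Genes of the germline stem cell and Notch list fell almost without exception. Of 16 listed and measured, 15 were called lower and 0 higher, with a median log2 fold change of −2.36 beside 0.27 over all genes. The RNA-binding protein GLD-1, which represses translation as germ cells enter meiosis, had the largest fall of the list. Its gene gld-1 stood at 8.90, 9.23 and 8.71 log2 CPM in WT and at 4.29, 4.75 and 6.09 in glp-1(ts), 14.9-fold lower (log2 fold change −3.9 ± 0.37 SE, limma, Benjamini-Hochberg adjusted p = 5.3e-07). The direct GLP-1 targets sygl-1 and lst-1, which hold germ cells in the stem cell state, fell by 2.33 and 1.86 on the log2 scale. In whole worms, fewer cells of a type and less RNA per cell cannot be told apart, here and in all later results. The 1 member not called was sel-8, a nuclear cofactor of Notch signalling in germline and soma alike, at 4.31, 4.33 and 3.92 in WT and 3.47, 4.24 and 3.74 in glp-1(ts), and it was called lower without replicate 2 of glp-1(ts). The difference, −0.37 on the log2 scale, turns to 0.52 when centred on ribosomal protein genes.

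P granules are the RNA and protein condensates of the germ line. All 18 P granule genes were measured, and 17 were called lower and 1 higher (median −2.68). The helicase gene cgh-1 stood at 10.53, 10.81 and 10.39 log2 CPM in WT and at 6.32, 6.42 and 7.47 in glp-1(ts), 14.3-fold lower. The helicase glh-1 fell by 3.23 and the core P granule gene pgl-1 by 3.60 on the log2 scale. The exception was pan-1, which encodes a leucine-rich repeat protein and rose by 1.25 ± 0.14 (SE) on that scale, from 3.58, 3.45 and 3.43 to 4.63, 4.90 and 4.69.

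The meiosis list was lower throughout. All 36 genes were measured and all 36 were called lower, from −3.63 for zim-1, a zinc finger protein of the chromosome pairing centres, to −1.57 for him-17, a chromatin protein needed for meiotic breaks. The nuclease gene spo-11, which makes those breaks, stood at 3.9, 4.08 and 4.30 log2 CPM in WT and at 0.87, 1.24 and 1.2 in glp-1(ts). The axis gene him-3 had 5.32, 5.28 and 5.47 in WT and 1.72, 1.46 and 3.27 in glp-1(ts), and replicate 3 of glp-1(ts) was the highest of that group. The recombinase rad-51 and the synaptonemal complex gene syp-1 fell by 2.50 and 2.18. Replicate 3 of glp-1(ts) was the highest of its group for 33 of the 36 genes, and the list median moved from −2.95 to −3.32 without it.

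The genes of oocytes and the eggshell were among the most abundant of those that fell. Of 36 genes listed, all measured, 33 were called lower and 1 higher, with a median of −2.89 that became −3.21 without replicate 3 of glp-1(ts). The eggshell gene cbd-1, whose product binds chitin, stood at 11.23, 11.39 and 10.81 log2 CPM in WT and at 6.65, 6.83 and 7.89 in glp-1(ts), 16-fold lower (limma, Benjamini-Hochberg adjusted p = 1.5e-07). The yolk receptor gene rme-2 went from 9.38, 9.86 and 9.14 to 5.76, 5.73 and 6.81. The chitin synthase gene chs-1, the egg surface receptor gene egg-1, the eggshell proteoglycan gene cpg-1 and the oocyte maturation factor oma-1 fell by 3.12, 3.03, 3.39 and 2.65 on the log2 scale. The member that rose was perm-2, a gene of the vitelline layer of the eggshell, from 9.21, 9.17 and 8.96 to 9.66, 9.89 and 9.68 log2 CPM, a change of 0.63 ± 0.13 (SE) against the direction of its list.

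Embryonic transcripts followed the same direction. Of 34 early embryo genes listed, 25 were measured, and 21 were called lower and 3 higher (median −2.45). The germline fate gene pie-1, a maternal mRNA, stood at 5.26, 5.54 and 4.91 log2 CPM in WT and at 2.49, 2.72 and 3.65 in glp-1(ts). The early zygotic gene pes-10 had 1.65, 1.98 and 1.2 in WT and −1.96, −4.35 and −0.96 in glp-1(ts), where −4.35 is the lowest value that the table holds. The 3 that rose, sdz-24, sdz-27 and sdz-8, are named for zygotic transcripts that depend on maternal SKN-1, and they rose by 3.1, 2.31 and 1.15 on the log2 scale. The values of sdz-24 were 1.78, 1.76 and 2.29 in WT and 5.47, 4.56 and 5.09 in glp-1(ts), with no overlap.

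Sperm genes lacked the common direction of the other germline lists. Only 13 of 28 listed genes were in the table, and of these 4 were called lower, 2 higher and 7 neither (median 0.43). Over all genes 38.0% were called lower and 39.4% higher. The fall was led by spe-44, a transcription factor that starts the sperm programme in larvae, at 2.69, 2.91 and 2.65 log2 CPM in WT and −0.66, −0.66 and −0.71 in glp-1(ts). The sperm phosphatase gsp-4 rose by 1.80 ± 0.67 (SE), from −1.21, −2.89 and −0.47 to −0.32, 0.20 and 0.94 log2 CPM, a level near 1 CPM in both strains, and it lost its call without WT replicate 2 or glp-1(ts) replicate 3. The larger rise was swm-1, a protease inhibitor that restrains sperm activation, by 2.25 on the log2 scale. The sperm genes fer-1, spe-4 and gsp-3 were not called, with log2 fold changes of 0.95, 0.43 and 1.31. Of 9 genes for major sperm proteins, the cytoskeletal proteins of nematode sperm, 5 were called higher and 0 lower, and 3 were called higher without replicate 3 of glp-1(ts). Such counts of 9 genes lie on both sides of the 39.4% of all genes called higher. The gene msp-40 stood at −4.35, −4.35 and −1.05 in WT and 0.10, −0.15 and −0.19 in glp-1(ts), and it kept its call without WT replicate 3 or glp-1(ts) replicate 3 but not without any of the other 4 libraries. Members of this family are nearly identical in sequence, so reads may be shared among them. The median of the sperm list turned to −0.95 when genes under a mean of 1 CPM were left out, and to −0.29 with 4 CPM as the minimum.

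The plot of list members shows these germline lists at its lower end, next to the lists for DNA replication and cell division. All 35 DNA replication genes were called lower, from −5.13 for psf-2, a subunit of the replication helicase complex, to −1.44 for orc-2, a subunit of the origin recognition complex. The helicase gene mcm-2 stood at 7.97, 8.18 and 7.82 log2 CPM in WT and at 4.48, 4.67 and 5.74 in glp-1(ts). The sliding clamp gene pcn-1 and the ribonucleotide reductase genes rnr-1 and rnr-2 fell by 2.56, 3.01 and 2.71. Of 63 mitosis and cell cycle genes, 61 were measured and all 61 were called lower (median −2.45), and 60 of them without replicate 3 of glp-1(ts). The cyclin-dependent kinase gene cdk-1 went from 6.59, 6.70 and 6.76 to 3.15, 3.64 and 4.08, the mitotic kinase gene plk-1 fell by 3.22 and the Aurora B kinase gene air-2 by 2.73. The smallest fall was that of zyg-8, a doublecortin kinase of the spindle, at 0.53, which was not called without WT replicate 2 and turns to 0.36 when each library is centred on the ribosomal protein genes.

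**Figure D2:**
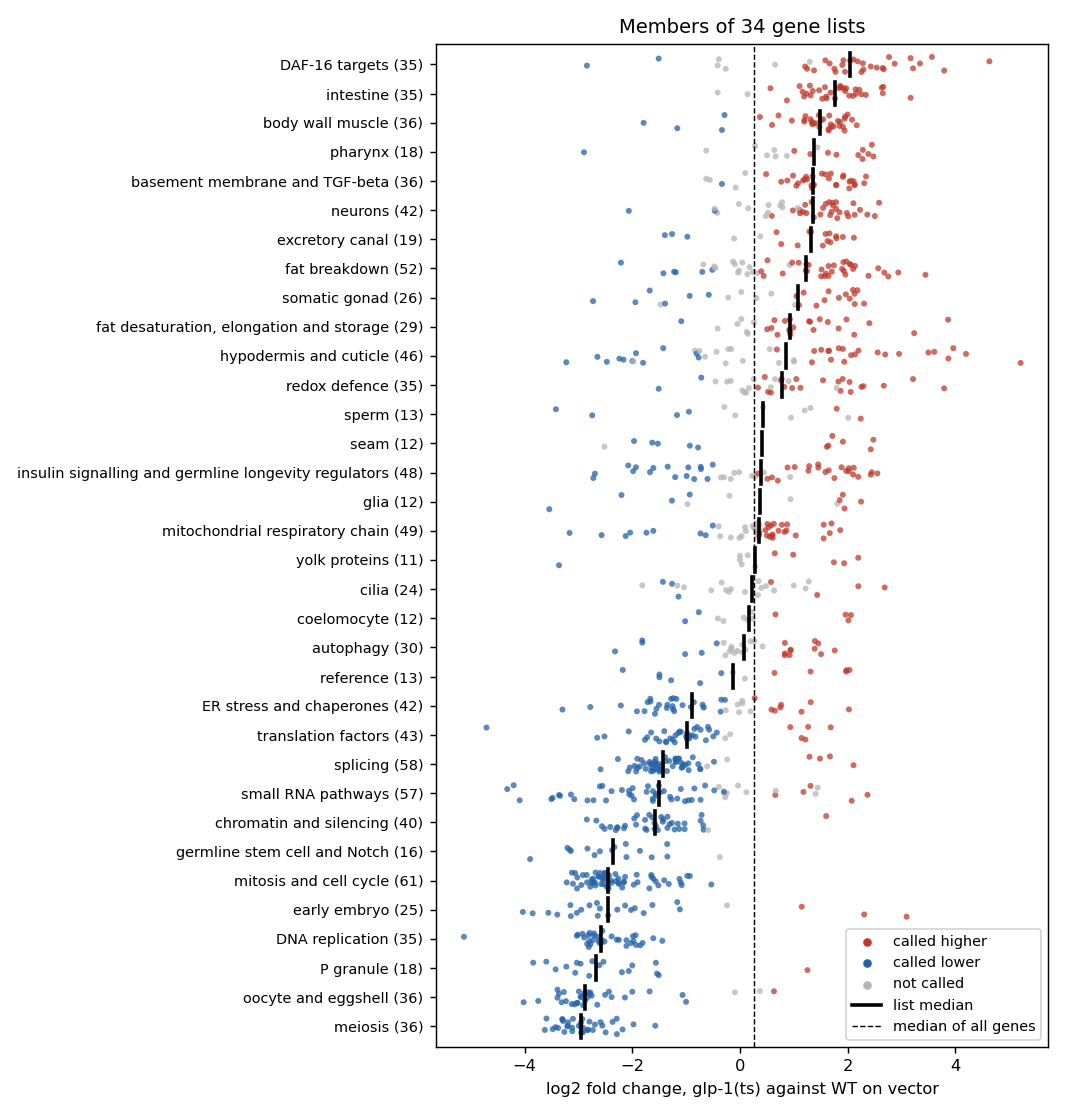
Log2 fold change of glp-1(ts) against WT on vector (horizontal axis) for each measured member of 34 gene lists, with the number measured in parentheses. Points are genes, red where called higher, blue where called lower and grey where not called, and black bars are list medians, which run from −2.95 for meiosis to 2.05 for DAF-16 targets around the dashed median of all genes at 0.27.

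Chromatin and silencing factors fell by less. Of 40 genes measured, 38 were called lower and 1 higher (median −1.57). Centred on ribosomal protein genes, 25 were lower and 1 higher (median −0.68). The genes mes-2 and mes-4, histone methyltransferases that act in the germ line, stood at 4.88, 5.29 and 4.94 log2 CPM against 2.87, 3.06 and 2.72, and at 5.88, 6.12 and 5.65 against 3.36, 3.27 and 4.19. The heterochromatin protein gene hpl-2 and the H3K4 methyltransferase gene set-2 fell by 1.76 and 1.69. The gene dot-1.1, for an H3K79 methyltransferase, rose by 1.60 ± 0.15 (SE), from 6.30, 6.46 and 6.38 to 7.77, 8.11 and 8.06. Of 25 histone genes, 19 were called lower and 4 higher (median −2.90), with his-48 at the lower end (−4.74) and the replacement histone H3.3 gene his-71 at the upper end (1.93). Core histone genes are near copies of each other and most of their mRNA lacks a poly(A) tail, so these values are uncertain.

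Small RNA pathways divided by member. Of 60 genes listed, 57 were measured, and 43 were called lower, 5 higher and 9 neither (median −1.51). Centred on ribosomal protein genes, 29 were lower and 14 higher (median −0.62). The nuclear Argonaute gene hrde-1, which carries silencing across generations, stood at 8.62, 8.96 and 8.44 log2 CPM in WT and at 5.05, 4.95 and 5.93 in glp-1(ts). The Argonaute genes ergo-1, csr-1 and prg-1 fell by 2.06, 1.56 and 1.51. Against the list, the microRNA Argonaute gene alg-1 rose by 1.18, from 4.52, 4.54 and 4.81 to 5.64, 6.17 and 5.61, and sid-2, an intestinal protein for uptake of dsRNA, by 2.37, from 2.57, 2.96 and 2.35 to 5.30, 5.09 and 4.59. The dsRNA import genes sid-1 and sid-3 had log2 fold changes of −0.27 (not called, and 0.62 when centred on ribosomal protein genes) and 1.31 (called higher). The largest fall was that of prg-2, which the reference annotation lists as a pseudogene, from 6.76, 6.79 and 6.88 to 2.23, 1.32 and 3.91.

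Splicing factors were mostly lower too. Of 61 listed, 58 were measured, and 52 were called lower, 4 higher and 2 neither (median −1.42). Centred on ribosomal protein genes, 31 were lower and 6 higher (median −0.53). The spliceosome core gene prp-8 stood at 8.06, 8.32 and 8.10 log2 CPM in WT and at 5.98, 6.38 and 6.33 in glp-1(ts). The SR protein genes rsp-3 and rsp-5 fell by 1.67 and 2.59. The 4 that rose were mbl-1 (the muscleblind gene), asd-2, sup-12 and exc-7, all regulators of alternative splicing in muscle or neurons, by 2.11, 1.67, 1.49 and 1.29. The values of mbl-1 were 2.64, 3.17 and 2.90 in WT and 4.97, 5.1 and 4.97 in glp-1(ts). All 22 nuclear pore genes were called lower (median −1.90), from −2.71 for npp-9 to −0.48 for npp-20, which turns to 0.41 when centred on ribosomal protein genes.

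The cytosolic ribosomal protein genes were nearly all lower on this scale. All 31 small subunit genes were called lower, within the narrow range of −1.24 (rps-8) to −0.52 (rps-13), and of 47 large subunit genes 45 were called lower and 2 higher (medians −0.91 and −0.87). These genes are also one of the scales tried: centred on them, every log2 fold change is 0.89 higher, the median of the large subunit genes is 0.01, rps-13 stands at 0.37 and 72.1% of calls are higher in place of 50.9%. The extremes were rpl-11.1, at 9.50, 9.44 and 9.56 log2 CPM in WT and 5.26, 5.23 and 6.12 in glp-1(ts), 15.6-fold lower, and rpl-25.1, at 5.84, 5.57 and 5.98 against 7.49, 7.72 and 7.48. The other gene that rose was rpl-11.2, at 7.39, 6.97 and 7.29 against 8.41, 8.48 and 8.44, and the second largest fall was that of rpl-25.2, by 1.99, both named here after their values were seen. The paralogs rpl-11.1 and rpl-11.2 thus moved in opposite directions, as did rpl-25.2 and rpl-25.1.

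Other members of 1 family or complex also moved in opposite directions. The pairs given here were picked for this after their values were seen, and pairs that moved together were not counted. The eIF5A genes iff-1 and iff-2 are alternatives in translation, and iff-1 went from 8.76, 8.44 and 8.95 to 3.56, 3.02 and 5.43 log2 CPM while iff-2 went from 5.67, 5.53 and 6.13 to 7.33, 7.62 and 7.46. For the ATP synthase subunit b genes, asb-1 fell by 2.57 ± 0.18 (SE) and asb-2 rose by 1.56 ± 0.18 (SE) on the log2 scale. For the complex III core protein genes, ucr-2.3 fell by 3.17 ± 0.29 (SE) and ucr-2.2 rose by 1.86 ± 0.19 (SE). For the elongation factor 1A genes, eef-1A.1 fell by 1.72 and eef-1A.2 rose by 0.94, and for the poly(A)-binding protein genes, pab-1 fell by 1.25 and pab-2 rose by 1.27. These 5 pairs and the rpl-11 pair, drawn in the plot of related genes, had no overlap between strains in either member, as had 81.1% of all genes. Near-identical copies such as the eef-1A genes may share reads, and how the authors' counting treated such reads was not given in the sources used here.

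**Figure D3:**
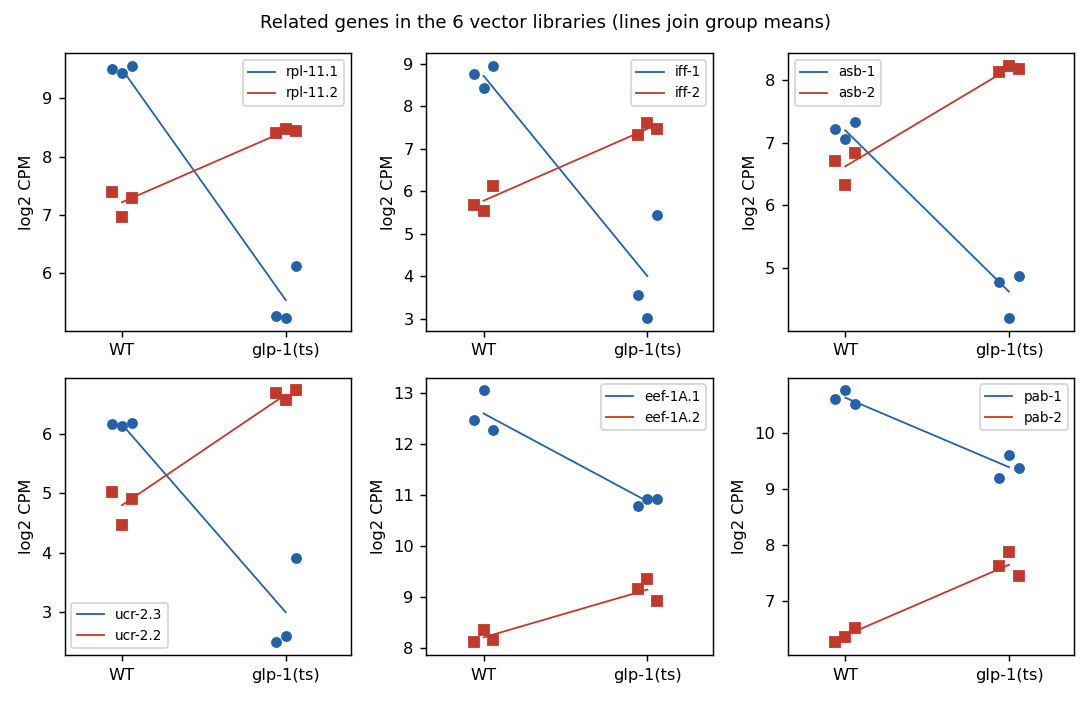
Level in log2 CPM (vertical axis) of 6 pairs of related genes, picked for their opposite directions, in the 3 WT and 3 glp-1(ts) vector libraries (horizontal axis). Points are libraries and lines join group means, blue for the member that was lower in glp-1(ts) and red for the member that was higher, and neither member of any pair has overlapping groups.

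On the deposited scale the rest of the translation and protein quality machinery was mostly lower, but much of this went with the scale. Of 43 translation factor genes measured, 36 were called lower and 5 higher (median −0.98), with ifg-1, a scaffold of cap-dependent initiation, at 8.46, 8.67 and 8.41 log2 CPM in WT and 7.17, 7.29 and 7.20 in glp-1(ts). Of 33 aminoacyl-tRNA synthetase genes 32 were called lower, and of 65 mitochondrial ribosomal protein genes 56, with 0 higher in either family. Centred on ribosomal protein genes, 12 translation factor genes were lower and 8 higher, 6 and 2 synthetase genes and 14 and 7 mitochondrial ribosomal protein genes, with medians of −0.096, −0.041 and −0.11. All 18 genes of the proteasome regulatory particle and all 14 of its core were called lower (medians −1.14 and −0.86), and with that centring 6 and 0 were lower. Of 42 ER stress and chaperone genes 27 were lower and 8 higher (median −0.88), or 15 and 17 with that centring (median 0.0052). The cytosolic chaperone genes daf-21 (HSP90), hsp-1 (HSC70) and cct-1 fell by 2.78, 2.21 and 1.66. By contrast xbp-1, the transcription factor of the ER stress response, rose by 0.77, the disulphide isomerase gene pdi-2 rose by 0.65, and the ER chaperone genes hsp-4 and crt-1 were not called, at −0.66 and 0.05, although hsp-4 was called lower without replicate 3 of glp-1(ts) and turns to 0.23 with that centring.

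Somatic genes made up the other side of the comparison. Of 17 tissue lists, the mean level per library did not overlap between strains in 13, of which 5 were lower in glp-1(ts) (stem cell and Notch, P granule, meiosis, oocyte and eggshell, and early embryo) and 8 were higher. By an exact two-sided permutation test of 3 libraries against 3, each of the 13 had p = 0.1, the smallest that this design allows, or 0.131 after Benjamini-Hochberg adjustment over the 17 lists. Any list without overlap gets this p, so it only restates the lack of overlap, which 81.1% of single genes also had. The lists were chosen with earlier results of these data known, so the p-values add no support. The sperm, cilia, glia and seam lists overlapped between strains.

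**Figure D4:**
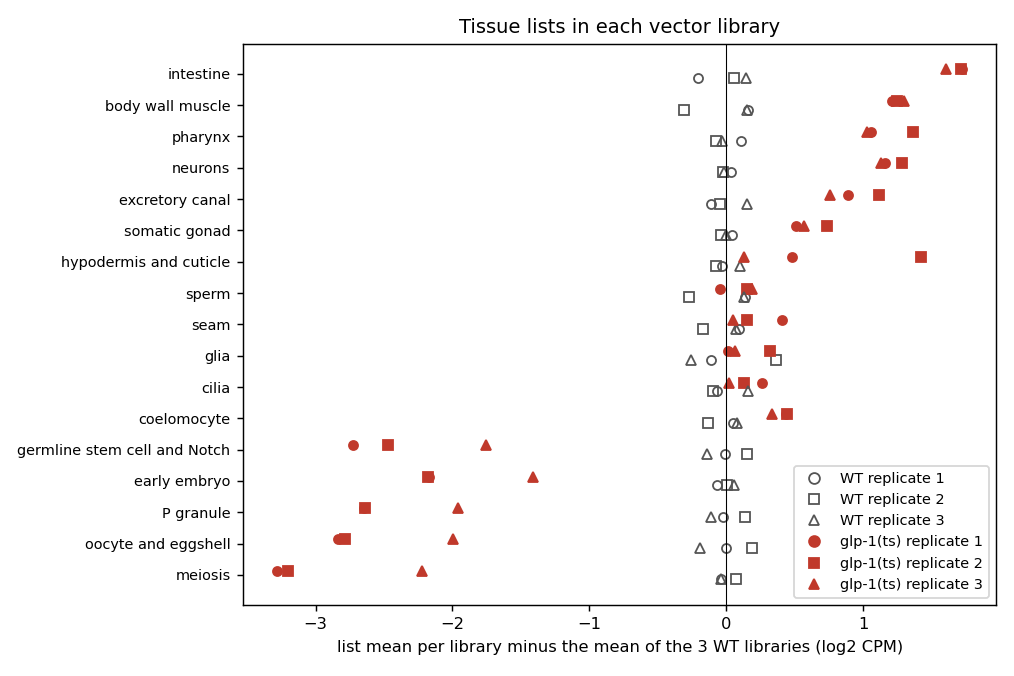
Mean level of each of 17 tissue lists in each vector library, minus the mean of the 3 WT libraries, in log2 CPM (horizontal axis). Open grey symbols are WT and filled red symbols glp-1(ts), with the symbol shape giving the replicate, and the triangle of glp-1(ts) replicate 3 lies closest to WT in the 5 lists at the bottom.

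The intestine had the largest rise among the tissue lists. Of 38 genes 35 were measured, and 33 were called higher, 0 lower and 2 neither (median 1.77). The gut GATA factor elt-2 stood at 1.87, 2.37 and 2.44 log2 CPM in WT and at 4.27, 4.11 and 3.96 in glp-1(ts), and the gut esterase gene ges-1 at 4.34, 4.46 and 4.48 against 7.15, 6.95 and 7.09, 6.21-fold higher. The apical proton pump gene vha-6, the protease gene asp-1 and the microvillar actin gene act-5 rose by 1.60, 1.19 and 1.24. The ferritin gene ftn-1 had the largest rise of the list, 3.17 on the log2 scale. At the other end fat-7 was not called, since it varied between libraries of the same strain, at −1.65, 2.65 and −0.30 in WT and −1.0, 1.41 and −0.96 in glp-1(ts), a log2 fold change of −0.41 that turns to 0.48 when centred on ribosomal protein genes. Of 19 vacuolar ATPase genes 17 were higher, led by vha-5 (1.79), and 2 lower, led by vha-18 (−2.95).

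Muscle genes rose by a similar amount. Of 36 body wall muscle genes 32 were called higher and 4 lower (median 1.49). The titin-like kinase gene unc-22 stood at 7.52, 6.34 and 7.15 log2 CPM in WT and 8.61, 9.12 and 9.15 in glp-1(ts). The myosin heavy chain gene unc-54 had 10.44, 9.49 and 9.90 against 10.74, 11.62 and 11.06, and its WT replicate 2 was the lowest of that group, as it was for unc-22. The zyxin gene zyx-1 led with a rise of 2.17, and the actin gene act-4 rose by 0.72. The 4 lower members were the actin gene act-2 (−1.79), the MyoD-like factor hlh-1 (−1.16), the integrin beta gene pat-3 (−0.33) and the cofilin gene unc-60 (−0.29), and the last 2 turn positive when centred on ribosomal protein genes (0.55 and 0.60). With 1 library left out at a time pat-3 kept its call only without replicate 2 of glp-1(ts), the call of hlh-1 was lost without WT replicate 1 or 3 or glp-1(ts) replicate 2, and that of unc-60 without glp-1(ts) replicate 1.

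In the pharynx list 18 of 29 genes were measured, and 10 were called higher, 1 lower and 7 neither (median 1.38). The pharyngeal myosin genes myo-1 and myo-2 rose by 2.48 and 2.45, with myo-2 at 4.59, 4.00 and 4.58 log2 CPM in WT and 6.40, 7.07 and 7.06 in glp-1(ts), and the troponin C gene tnc-2 rose by 1.64. The lower member was pgl-2, a P granule gene. Of 48 genes of neurons 42 were measured, and 29 were called higher, 2 lower and 11 neither (median 1.35). The GABA synthesis gene unc-25 stood at 2.31, 2.27 and 2.03 in WT and 4.67, 4.47 and 4.57 in glp-1(ts), and the acetylcholine transporter gene unc-17 at 0.41, 0.63 and −0.30 against 2.05, 1.78 and 2.86. The synaptic genes unc-64 (syntaxin) and snb-1 (synaptobrevin) rose by 1.70 and 0.59, and the glutamate transporter gene eat-4 was not called (0.16). Those lower were unc-26 (synaptojanin), by 0.47, a value that turns to 0.42 when centred on ribosomal protein genes and that kept its call only when WT replicate 3 was the library left out, and tdc-1, a tyrosine decarboxylase also made in the gonadal sheath, by 2.06.

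Neuropeptide genes were higher almost as a class. Of 30 FMRFamide-like peptide genes 27 were called higher and 0 lower, and of 35 other neuropeptide-like genes 27 and 0 (medians 1.39 and 1.55, against 39.4% of all genes called higher). The gene flp-18 stood at 2.65, 2.55 and 2.63 log2 CPM in WT and at 5.00, 4.81 and 4.87 in glp-1(ts), and nlp-16 at 2.01, 1.49 and 2.1 against 4.29, 4.38 and 4.2. The antimicrobial peptide gene nlp-29 of the epidermis was the least changed of its family, at 1.45, 2.27 and 2.03 against 1.08, 1.94 and 2.98. Of 43 potassium channel genes 27 were higher and 1 lower, and of 33 acetylcholine receptor subunit genes 13 were higher and 0 lower, a share called higher equal to that of all genes, with 20 not called. Cilia genes, which belong to few sensory neurons, were mostly near the detection limit: 24 of 50 were in the table, and 4 were called higher, 3 lower and 17 neither. Their median of 0.22 turned negative under a filter of 1 CPM (−0.26) and without WT replicate 2 (−0.046) or glp-1(ts) replicate 1 (−0.054).

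Smaller tissues gave mixed counts, to be read beside the 39.4% of all genes called higher and the 38.0% called lower. In the somatic gonad, 14 of 26 measured genes were called higher and 6 lower (median 1.08): gon-1, a metalloprotease of gonad migration, went from 3.25, 3.12 and 3.41 to 5.22, 5.57 and 5.39 log2 CPM, and the sheath innexin gene inx-8 rose by 1.05. The sheath factor lim-7 was not called (0.31), nor was lag-2, the Notch ligand of the distal tip cell, at 0.53, 0.08 and 0.41 against −1.29, −0.40 and −1.73, groups that did not overlap. Called members that fell included hlh-2, a bHLH factor, unc-59, a septin, and apx-1, a Notch ligand that is also a maternal mRNA, by 2.73, 1.94 and 1.68. In the excretory canal 14 of 19 genes were higher and 3 lower, with the aquaporin gene aqp-8 at 3.86, 3.42 and 4.49 against 6.08, 5.49 and 6.54 and the chloride channel gene exc-4 lower by 0.98. In the coelomocyte list 4 of 12 genes were called higher, 2 lower and 6 neither. Its markers unc-122 and cup-4 rose by 2.02 and 1.96, while cup-5 was called lower (−1.02). Of 12 glia genes 4 were higher and 4 lower: the glutamate transporter gene glt-1 rose by 1.91, and the largest fall was that of gpr-2, a regulator of spindle position in the early embryo.

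Epidermal and cuticle genes changed in both directions, and of the 17 tissue lists their mean varied most among the glp-1(ts) libraries. Of 46 measured, 22 were called higher, 11 lower and 13 neither (median 0.86), beside 39.4% of all genes higher and 38.0% lower. The list means were 2.02, 1.98 and 2.15 log2 CPM in WT and 2.53, 3.47 and 2.18 in glp-1(ts). The cuticle collagen gene dpy-13 stood at 1.08, 0.35 and 1.03 in WT and at 4.79, 6.29 and 3.01 in glp-1(ts), and sqt-1, another, at −1.21, −2.89 and −4.35 against 2.23, 3.83 and 1.14. In both, replicate 2 of glp-1(ts) was the highest and replicate 3 the lowest. The collagen genes rol-6 and bli-1 rose by 2.96 and 1.94. The lower members included other collagen genes, among them dpy-14 (−3.23), dpy-17 (−2.65), dpy-3 (−2.47), dpy-10 (−2.24) and dpy-7 (−2.0), and replicate 2 of glp-1(ts) was again the highest of its group for each of these. The values of dpy-7, for instance, were 2.49, 2.50 and 3.1 in WT and −0.15, 2.01 and 0.22 in glp-1(ts). Among the 99 genes named col-, 79 were called higher and 4 lower (78 and 2 without replicate 3 of glp-1(ts)), from 4.27 for col-133 to −3.77 for col-121, and their per-library means were 2.52, 1.90 and 2.34 in WT and 4.32, 4.83 and 3.59 in glp-1(ts).

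Secreted hedgehog-related proteins and patched-related membrane proteins are large nematode families with members that act in the epidermis. Of 27 hedgehog-related genes 14 were higher and 2 lower, with wrt-6 at −2.89 in each WT library and at 1.4, 1.72 and 0.45 log2 CPM in glp-1(ts), and wrt-10 lower by 1.59. Of 22 patched-related genes 14 were higher and 2 lower, with ptc-3 higher by 2.33 and ptr-2 lower by 2.68. Seam cell genes were divided, with 6 higher, 5 lower and 1 not called, beside 39.4% of all genes higher and 38.0% lower. Without replicate 3 of glp-1(ts) 3 seam cell genes were lower. The gene grd-10 rose by 2.48, and egl-18, apr-1 and wrt-2 fell by 1.63, 1.97 and 1.52. Basement membrane and TGF-beta genes were mostly higher: 31 of 36 were called higher and 1 lower, pat-3 again (median 1.36). The type IV collagen genes emb-9 and let-2 stood at 8.08, 7.33 and 7.94 against 9.62, 9.95 and 9.90, and at 8.82, 8.16 and 8.53 against 10.25, 10.61 and 10.42. The hemicentin gene him-4 had the largest rise of the list, 2.34, and the TGF-beta ligand dbl-1, which sets body size, rose by 1.91.

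Lipid genes were a further group that rose. Of 29 measured genes for fat desaturation, elongation and storage, 22 were called higher and 1 lower (median 0.93). The palmitoyl-CoA desaturase gene fat-5 stood at 3.98, 4.72 and 3.41 log2 CPM in WT and at 8.14, 7.90 and 7.68 in glp-1(ts), 14.6-fold higher (limma, Benjamini-Hochberg adjusted p = 1.8e-07). The stearoyl-CoA desaturase gene fat-6 went from 7.61, 7.58 and 7.45 to 9.24, 9.27 and 9.03, and sbp-1, the SREBP factor of fat synthesis, from 3.75, 3.87 and 3.89 to 6.43, 6.17 and 6.13. The fatty acid synthase gene fasn-1 and the desaturase gene fat-2 rose by less, 0.59 and 0.94. The lower member was the seipin gene of lipid droplets (listed as R01B10.6), by 1.09. Of 52 fat breakdown genes 33 were called higher and 6 lower (median 1.23): the acyl-CoA synthetase gene acs-2 stood at 4.18, 3.27 and 3.29 against 5.18, 6.01 and 5.50, and the carnitine palmitoyltransferase gene cpt-3 at 0.82, 1.54 and 0.19 against 4.46, 4.79 and 3.65. The triglyceride lipase gene atgl-1 (listed as C05D11.7) was not called, at 5.60, 5.60 and 5.31 against 5.42, 5.36 and 5.46, and its log2 fold change of −0.09 turns to 0.80 when centred on ribosomal protein genes. The lysosomal lipase gene lipl-4 was called higher, but its values overlapped, at −4.35, 0.45 and −1.05 in WT and 0.77, 0.39 and 0.08 in glp-1(ts), and the call was lost without WT replicate 1 or any one of the glp-1(ts) libraries.

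Yolk is made by the intestine and taken up by oocytes, and its genes did not fall with those of oocytes. In the yolk list 5 of 11 measured genes were called higher, 1 lower and 5 neither (median 0.28), beside 39.4% of all genes higher. The lower member was the yolk receptor gene rme-2, the only one with a negative log2 fold change. The vitellogenin gene vit-5 rose by 0.65 ± 0.17 (SE), from 12.27, 12.46 and 12.46 log2 CPM to 13.05 in each glp-1(ts) library, and vit-1 and vit-3 were not called (0.14 and 0.03). At this end of the range quantile normalization assigns each library the same few values by rank, so equal values there are ranks and not equal measurements. Of 17 lipid-binding protein genes 13 were higher and 2 lower, with far-3 higher by 3.58 and lbp-9 lower by 1.72.

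Regulators of lifespan showed no common direction on the deposited scale. Of 50 genes of insulin signalling and germline longevity 48 were measured, and 23 were called higher, 16 lower and 9 neither (median 0.39). The shares over all genes were 39.4% higher and 38.0% lower, so these counts are not far from the background. Centred on ribosomal protein genes, 30 were higher and 7 lower. The steroid receptor gene daf-12 stood at 2.86, 3.09 and 2.96 log2 CPM in WT and at 4.95, 5.28 and 5.04 in glp-1(ts). The nuclear receptor gene nhr-80 went from 2.64, 2.66 and 2.48 to 4.87, 4.78 and 4.45, and hlh-30, the TFEB factor of lysosomal genes, rose by 1.46. The forkhead factor gene daf-16 rose by 0.60 ± 0.16 (SE), from 6.03, 6.27 and 5.76 to 6.58, 6.83 and 6.44. The insulin receptor gene daf-2 fell by 0.60 ± 0.18 (SE) and the elongation factor gene tcer-1 by 0.85 ± 0.12 (SE), and both turn positive when centred on ribosomal protein genes (0.29 and 0.039). The gene daf-9, for a cytochrome P450 that makes the DAF-12 ligand, was called higher with overlapping values, 0.30, −2.89 and −2.89 against 1.45, 0.20 and 0.22, and lost its call without WT replicate 2 or 3 or glp-1(ts) replicate 1, and the intestinal gene kri-1 was not called (0.44). Called members that fell included the zinc finger gene ztf-11 (−2.72) and hcf-1, a host cell factor (−2.08).

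Genes listed as DAF-16 targets had the highest median of the 34 lists, 2.05. The list was not sorted by whether DAF-16 raises or lowers each gene. Its rank is therefore no measure of DAF-16 activity, which was not tested. Of 42 listed 35 were measured, and 28 were called higher, 2 lower and 5 neither. The lysozyme gene lys-7 stood at 6.30, 6.68 and 4.94 log2 CPM in WT and at 9.65, 9.38 and 8.93 in glp-1(ts), 10.2-fold higher, and the catalase gene ctl-2 at 4.45, 4.71 and 4.80 against 7.06, 6.92 and 6.87. The glyoxylate cycle gene icl-1 and the gene dod-3 rose by 1.25 and 2.67, and lea-1, a desiccation protein, was not called (−0.39, or 0.50 when centred on ribosomal protein genes). The lower members were sip-1, a small heat shock protein of germ line and embryo, from 9.05, 9.54 and 8.86 to 6.05, 5.91 and 6.95, and ctl-3, another catalase, by 1.51. In the redox defence list 21 of 35 genes were higher and 2 lower (median 0.78), with the metallothionein gene mtl-1 higher by 3.80, the glutamate-cysteine ligase gene gcs-1 by 0.58 and the superoxide dismutase gene sod-1 by 0.76. Of 30 autophagy genes 11 were higher and 6 lower, against 39.4% and 38.0% of all genes. Centred on ribosomal protein genes, 24 autophagy genes were higher and 3 lower. The adaptor gene sqst-1 rose by 1.76 and the kinase gene unc-51 by 1.4. The genes sepa-1 and epg-2, which act in degradation of P granules in embryos, fell by 2.32 and 1.81. Not called were bec-1 and lgg-1 (0.20 and 0.42).

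Large gene families outside these lists also had a direction. The C-type lectin genes (64 of 91 higher, 7 lower), UDP-glucuronosyltransferase genes (36 of 55 and 1), cytochrome P450 genes (35 of 57 and 4), glutathione S-transferase genes (20 of 32 and 1), nuclear hormone receptor genes (96 of 168 and 11), transthyretin-like genes (40 of 46 and 1) and saposin-like genes (13 of 14 and 0) were more often higher, against 39.4% of all genes higher and 38.0% lower. The other way, F-box genes (46 of 187 higher, 98 lower), MATH-BTB genes (19 of 56 and 32), homeobox genes of the ceh- series (6 of 37 and 20) and T-box genes (1 of 9 and 8) were more often lower. Part of this went with the scale. Centred on ribosomal protein genes, 74 F-box genes were higher and 87 lower, and 10 and 12 ceh- genes. With that centring the counts were 23 and 29 for MATH-BTB genes and 1 and 8 for T-box genes. The median of the MATH-BTB genes turned from −1.96 to 1.19 once genes averaging under 4 CPM were left out. The largest fall among T-box factors, which specify cells in the embryo, was that of tbx-11, from 1.45, 1.41 and 1.41 log2 CPM to −4.35, −2.89 and −0.05, and the member that rose was the pharyngeal factor tbx-2 (0.72). Among F-box genes fbxa-107 went from 2.99, 2.56 and 2.75 to −1.96, −2.33 and −2.27, and fbxa-157 from −4.35, −2.89 and −4.35 to 0.10, 0.45 and −0.52.

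Position in the genome went with the direction of change. All shares and medians of this paragraph are on the deposited scale. Centring on ribosomal protein genes raises every log2 fold change by 0.89, which turns the autosome median positive. The shares called are not given for that centring. On the X chromosome 62.3% of 1816 genes were called higher and 12.7% lower (median log2 fold change 1.18), and on the 5 autosomes together 35.4% and 42.4% of 10655 (median −0.037). Among autosomes the share called lower was highest on I (51.9%) and III (49.3%) and lowest on V (28.5%). Of 14 genes of the mitochondrial genome 10 were called higher and 0 lower (median 0.82). The median level of X-linked genes was 2.21, 2.17 and 2.2 log2 CPM in the WT libraries and 2.98, 2.96 and 2.79 in glp-1(ts), and the median level on chromosome I was 4.03, 4.03 and 4.02 against 3.30, 3.35 and 3.49. The 6 libraries did not overlap in either. Of the genes changed over 4-fold, X held 19.3% of those higher and 6.07% of those lower. Genes whose end lay within 500 bases of a neighbour on the same strand, a spacing common in the operons of this species, were lower more often (51.2% of 4127) than other protein-coding genes (30.8% of 7946). Genes annotated as pseudogenes were lower in 149 of 269 cases, and 45% of the 269 were over 4-fold lower, beside 15.2% of all genes.

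**Figure D5:**
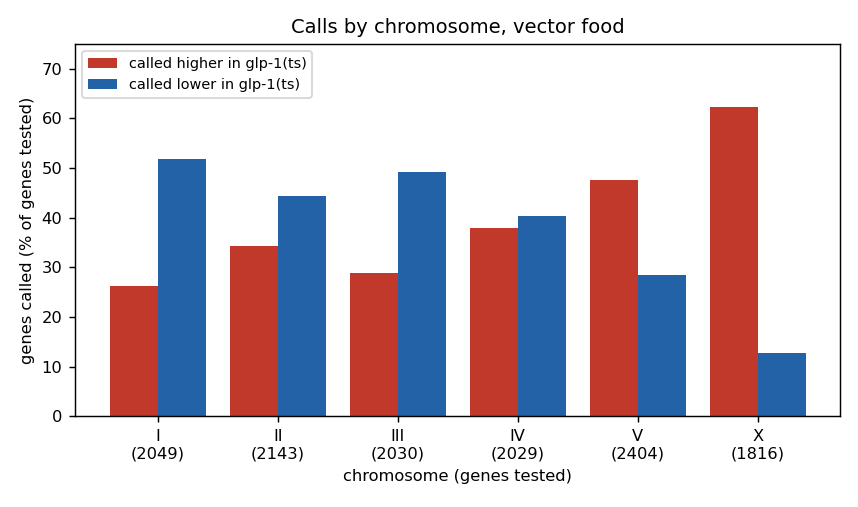
Share of tested genes called higher (red) or lower (blue) in glp-1(ts) against WT on vector, in percent (vertical axis), for each chromosome, with the number of genes tested below its name. The X chromosome has 62.3% higher and 12.7% lower, and chromosome I has 26.3% higher and 51.9% lower.

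The largest falls among genes of at least 4 log2 CPM in the higher strain came from genes of several kinds. Behind H11L12.1, at 4.44, 4.62 and 3.78 in WT and −4.35, −2.89 and −4.35 in glp-1(ts), came D2096.1, listed in the current annotation as timm-17B.2, at 4.56, 5.06 and 3.80 against −1.29, −1.96 and 0.08. Next was iff-1, described above, which lies on chromosome III at 9745862 to 9747193 (WBcel235, minus strand). The Y-box RNA-binding gene cey-2 (chromosome I, 5619569 to 5620669, plus strand) stood at 9.65, 10.02 and 9.51 against 4.89, 4.77 and 6.52, 20.1-fold lower, the most abundant gene of the group after cbd-1. The RNA-binding genes R09B3.2 (rbm-3.1) and tiar-2 fell by 4.17 and 4.00, and tiar-2 did so with little spread, from 5.1, 5.15 and 5.13 to 1.61, 0.96 and 0.80. The annotated pseudogenes klp-10, a kinesin, and Y102A5C.6 fell by 4.16 and 4.68, and the genes Y59A8B.12 and B0304.2, with no described product here, by 4.06 and 4.01.

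The largest rises at the same level were led by T22B7.7 and F23C8.7. The gene T22B7.7 (chromosome X, 5651865 to 5654074, minus strand) stood at 2.80, 3.41 and 4.09 log2 CPM in WT and at 8.58, 7.81 and 9.02 in glp-1(ts), 32.8-fold higher (log2 fold change 5.04 ± 0.34 SE, limma, Benjamini-Hochberg adjusted p = 5.3e-08). The gene F23C8.7 had −0.05, −0.07 and −0.11 in WT and 4.86, 4.43 and 5.75 in glp-1(ts). The next were E01G4.6 (4.56) and dhs-26, a short-chain dehydrogenase gene whose glp-1(ts) values ranged from 3.18 to 6.92. The aspartic protease gene asp-17 rose by 4.00, from 0.96, 1.24 and 1.41 to 5.31, 5.62 and 4.68, and C03G6.5 (exc-13) and Y51H7C.13 by 4.02 and 3.97. The remaining 5 of the 12 were fat-5 and the cuticle collagen genes bli-6, col-138, dpy-13 and col-73, the last at 1.30, −0.45 and 0.41 against 4.53, 5.89 and 2.44.

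Abundant genes with almost no strain difference came from several compartments, and 2 of them belong to the mitochondrial genome, most of whose genes were higher. Those with the smallest log2 fold changes at 8 log2 CPM or more in both strains were the mitochondrial genes ctb-1 (cytochrome b) and MTCE.26, the glutamate dehydrogenase gene gdh-1, the mitochondrial porin gene vdac-1, the disulphide isomerase gene pdi-3 and vit-3. Centred on ribosomal protein genes, MTCE.26, pdi-3 and gdh-1 turn from just below 0 to 0.87, 0.87 and 0.89. The values of vdac-1 were 8.96, 8.84 and 8.91 log2 CPM in WT and 8.97, 8.75 and 9.05 in glp-1(ts), and those of gdh-1 were 9.49, 9.66 and 9.39 against 9.54, 9.43 and 9.56. Across the 49 measured genes of the mitochondrial respiratory chain, 24 were called higher, 9 lower and 16 neither (median 0.36). The shares over all genes were 39.4% higher and 38.0% lower. The complex I gene gas-1 rose by 1.04. The adenine nucleotide carrier gene ant-1.1 fell by 0.64, a value that turns to 0.25 when centred on ribosomal protein genes. Of the genes often used as references, cdc-42 was not called (−0.13) and pmp-3 fell by 0.35, both positive with that centring (0.76 and 0.54) and the call of pmp-3 kept only when glp-1(ts) replicate 2 was the library left out, and ama-1, the large subunit of RNA polymerase II, fell by 1.5.

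The spread differed between strains and between directions. The median SD of a gene over 3 libraries was 0.187 log2 CPM in WT and 0.295 in glp-1(ts). Among genes called lower it was 0.136 in WT and 0.324 in glp-1(ts), and among genes called higher 0.225 and 0.244. Replicate 3 of glp-1(ts) was the highest of its group for 2980 of the genes called lower (62.2%) and the lowest for 2619 of those called higher (52.8%). The mean of the meiosis list was 1.2, 1.28 and 2.26 log2 CPM in the 3 glp-1(ts) libraries, beside 4.45, 4.55 and 4.44 in WT.

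The strains were also compared on skn-1 RNAi food, in 6 libraries that share none with the vector comparison but were normalized and fitted with it. There 79.8% of genes were called, and 9149 genes were called on both foods in the same direction, 93.9% of the vector calls and 91.1% of the others, with 1 gene called in opposite directions. The difference of the strain effect between foods was called for 0 genes (0.0%, limma, Benjamini-Hochberg adjusted p at least 0.732). In the same fit 745 of 12595 genes had an unadjusted p under 0.05. Chance alone would put a share of about 0.05 of all genes there, so this count by itself shows no difference. A difference between foods is estimated less precisely than either strain effect, so the lack of calls does not show equal effects. The study's methods also state that the RNAi feeding lowers skn-1 function only in part. The list medians stood side by side as −2.95 and −3.43 for meiosis, −2.89 and −3.39 for oocyte and eggshell, 1.77 and 1.84 for intestine and 1.35 and 1.66 for neurons, on vector and on skn-1 RNAi food.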

How the data were processed

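Poly(A) RNA was sequenced from whole worms of 4 groups of 3 replicates. According to the study's methods the authors aligned single-end reads with STAR to WBcel235, counted them per gene with featureCounts, removed genes of low CPM and quantile-normalized the rest with voom. The deposited values used here are the resulting log2 CPM. Read depth and the strand setting are not given in the sources used here, and the number of libraries limits the precision. The deposited columns of the authors' own comparisons (fold changes and p-values) were not used.

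Strain effects were fitted with limma 3.58.1 (R 4.3.3) over all 12 libraries with a variance trend and Benjamini-Hochberg adjustment over 12595 genes, with a threshold of 0.05. The fit was tested on simulated data. Lists were described by counts and medians, and list means by an exact two-sided permutation test. Named genes were the 12 largest changes in each direction with groups that did not overlap and at least 4 log2 CPM in the higher strain, preset anchors of each list, its largest rise and fall and up to 4 called members against its direction, the extremes of each family, and the 6 least changed genes of at least 8 log2 CPM in both strains. Members, lists and named anchors were chosen with earlier results of these data known. Some list members sit apart from the list's name: pgl-2, a P granule gene, among pharynx genes, gpr-2 among glia genes, and hop-1, a presenilin, among meiosis and chaperone genes. Coordinates are from Ensembl release 115 (WBcel235), which held 12485 of the IDs, and symbols are those of the deposited table.

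Alternatives covered the variance trend, vooma weights, the libraries fitted, minimum levels of 1 and 4 CPM, log2(CPM + 1), 3 other scalings, a fold threshold, each library left out in turn and a replicate block.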

Additional observations from a re-analysis of the deposited data

How the results depend on the processing

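Read depth is unknown and 3 libraries per strain cannot give an exact permutation p under 0.1. Leaving out 1 library at a time gave 4499 to 4872 genes higher and 4590 to 4673 lower. Of 232 named genes, 10 lost their call without some library, and these libraries are named beside the genes. Centred on ribosomal protein genes, 7108 genes were higher and 2753 lower, and 72.1% of calls were higher against 50.9% before, 51.2% with the median gene and 49.7% with 3 reference genes as the centre. That centring raises every value by 0.89 and so turned negative values near 0 positive: the medians of ER stress and chaperones (0.0052), reference genes (0.76), large ribosomal proteins (0.014), core proteasome (0.031), cuticlins (0.43) and kinesins (0.55), and cdc-42 (0.76), daf-2 (0.29), npp-20 (0.41), pat-3 (0.55), pdi-3 (0.87), pmp-3 (0.54), rps-13 (0.37), sid-1 (0.62), ant-1.1 (0.25), unc-26 (0.42), unc-60 (0.60), zyg-8 (0.36), MTCE.26 (0.87), gdh-1 (0.89), C05D11.7 (0.80), tcer-1 (0.039), fat-7 (0.48), hsp-4 (0.23), lea-1 (0.50) and sel-8 (0.52). Minimum levels of 1 and 4 CPM turned the sperm median to −0.95 and −0.29, the cilia median to −0.26 (1 CPM), and the MATH-BTB and cuticlin medians to 1.19 and 1.14 (4 CPM); the cause was not tested. Leaving out 1 library, the cilia median ran from −0.054 (without glp-1(ts) replicate 1; −0.046 without WT replicate 2) to 0.20 and the cuticlin median from −0.53 to 0.033 (without glp-1(ts) replicate 3). On log2(CPM + 1), 1 gene was called for the difference between foods.

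Replicate numbers were not read as pairs, and the main fit did not model them. Residuals of same-numbered libraries correlated across genes at 0.035, 0.161 and 0.119 and of others at −0.156 to 0.0231. Every library thus correlated best with its own number, which hints at pairing. The study's methods state that the sequenced samples were matched, without saying by what. With the replicate block 5137 genes were higher and 4849 lower. The planned count of promoter motifs was not run.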
